A study of Mus musculus with 12 samples.

Results

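Crystallins were described here across 4 populations of the mouse pancreatic β-cell line MIN6: the beta crystallins Crybb3, Crybb1, Crybb2 and Cryba1 and the alpha crystallin Cryab. The members were chosen by gene symbol, as every probe set whose platform annotation gives exactly 1 of these 5 symbols, and the choice of symbols was made with their intensities known, above all that of Crybb3 in Pr-HP. This gave 5 of 15964 named genes, and 8 of 36701 probe sets after controls were left out. MIN6 is a transformed line from a mouse insulinoma, and each population is a culture of it. The populations were Pr-HP (parental MIN6 cells at passages 35 to 40), C4-HP (clone 4 cells at passages 40 to 50), C4-LP (clone 4 cells at passages 17 to 20) and Pr-LP (parental cells at passages 17 to 20). Clone 4 is a single clone of the parental line, so it stands for 1 cell and its descendants. The study set Pr-HP, as cells that no longer answer glucose with insulin secretion, against the other 3 populations, called responder cells below. Each population was measured once on each of the chips A, B and C of an Affymetrix mouse set, which gives 12 arrays with no replicate. All values are therefore descriptions without a test, and the SD given with a responder mean is the spread between 3 different populations. Precision is limited by this number of arrays.

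Crystallins are the main soluble proteins of the eye lens, where they are packed densely and keep the tissue clear. Alpha crystallins belong to the small heat shock proteins, chaperones that hold damaged proteins in solution, and Cryab is also made in heart, muscle and glia. Beta crystallins fold into paired Greek-key domains, join into dimers and larger oligomers, and share this fold with the gamma crystallins. In the lens their genes are driven by transcription factors of the Maf family, with Pax6, Sox and Prox1 proteins.

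The upstream sequences are shown because Crybb3 stood apart from the other members and Maf proteins are known to act on crystallin promoters. A window of 300 bases, 250 before and 50 after the gene's start, was taken from RefSeq (build GRCm38.p6) for 4 of the 5 members, all but Cryab. Those of Crybb3, Crybb1 and Cryba1 are printed 5′ to 3′ on the gene's own strand, that of Crybb2, without a motif match, is left out, and capitals mark TGCTGAC or TGCTGAG, cores of Maf recognition elements, on either strand. The Crybb3 window is chr5:113081535-113081834 (minus strand), that of Crybb1 chr5:112255570-112255869 (plus strand), and that of Cryba1 chr11:77725244-77725543 (minus strand).
Crybb3: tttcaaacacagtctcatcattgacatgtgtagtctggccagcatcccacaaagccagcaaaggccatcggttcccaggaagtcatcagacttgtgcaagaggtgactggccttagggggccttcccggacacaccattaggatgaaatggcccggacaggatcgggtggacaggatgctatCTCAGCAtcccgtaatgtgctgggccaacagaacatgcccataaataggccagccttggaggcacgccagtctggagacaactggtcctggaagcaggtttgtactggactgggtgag
Crybb1: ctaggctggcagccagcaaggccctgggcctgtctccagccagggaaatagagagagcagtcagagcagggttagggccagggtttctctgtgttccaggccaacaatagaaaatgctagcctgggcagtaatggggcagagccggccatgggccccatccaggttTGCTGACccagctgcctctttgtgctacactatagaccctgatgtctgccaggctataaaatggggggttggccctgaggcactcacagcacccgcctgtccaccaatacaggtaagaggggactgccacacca
Cryba1: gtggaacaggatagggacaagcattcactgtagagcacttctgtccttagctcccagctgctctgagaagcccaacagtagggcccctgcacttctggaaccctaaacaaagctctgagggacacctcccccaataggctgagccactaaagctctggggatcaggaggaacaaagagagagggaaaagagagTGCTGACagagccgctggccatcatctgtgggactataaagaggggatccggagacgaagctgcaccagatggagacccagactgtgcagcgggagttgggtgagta
TGCTGAC stood in the Crybb1 window at positions -84 to -78 from the start and in the Cryba1 window at -57 to -51. Neither strand of the Crybb3 or Crybb2 window held it. TGCTGAG, a motif added after the sequences had been seen, stood in the Crybb3 window on the opposite strand at -68 to -62, where it reads CTCAGCA. Among the relatives Cryaa, Cryba2, Cryba4 and Crygs, which lacked the high Crybb3 value in Pr-HP, the windows of Cryba2 and Cryba4 also held TGCTGAG, and those of Cryba4 and Cryaa held TGCTGAC. GAANNTTC, a core of the heat shock element, was in none of the 4 windows. Among 32851 mouse promoter windows of this length, 4.67% held TGCTGAC, 7.84% held TGCTGAG and 7.86% held GAANNTTC on either strand. The motifs did not overlap in the windows shown. These letters are matches and not measured binding sites.

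Crybb3, a basic beta crystallin of the lens, was the bright member. Its probe set 117028_at on chip B had an intensity of 11438 units in Pr-HP, against 353 in C4-HP, 538 in C4-LP and 397 in Pr-LP. Pr-HP stood alone, and the 3 responder populations lay between 353 and 538, at 429 ± 96.5 units (SD, n = 3 populations). The intensity in Pr-HP was 26.7-fold above the responder mean (log2 4.74) and 28.8-fold above Pr-LP (log2 4.85). A fold is a ratio of intensities on the linear scale after values under the 20th percentile of a chip were raised to it, a floor of 67.3 units for chip A, 58.6 for B and 29.1 for C. All 4 Crybb3 values were above the floor, and whether so bright a signal as that in Pr-HP lay in the linear range of the array was not tested.

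**Figure D1:**
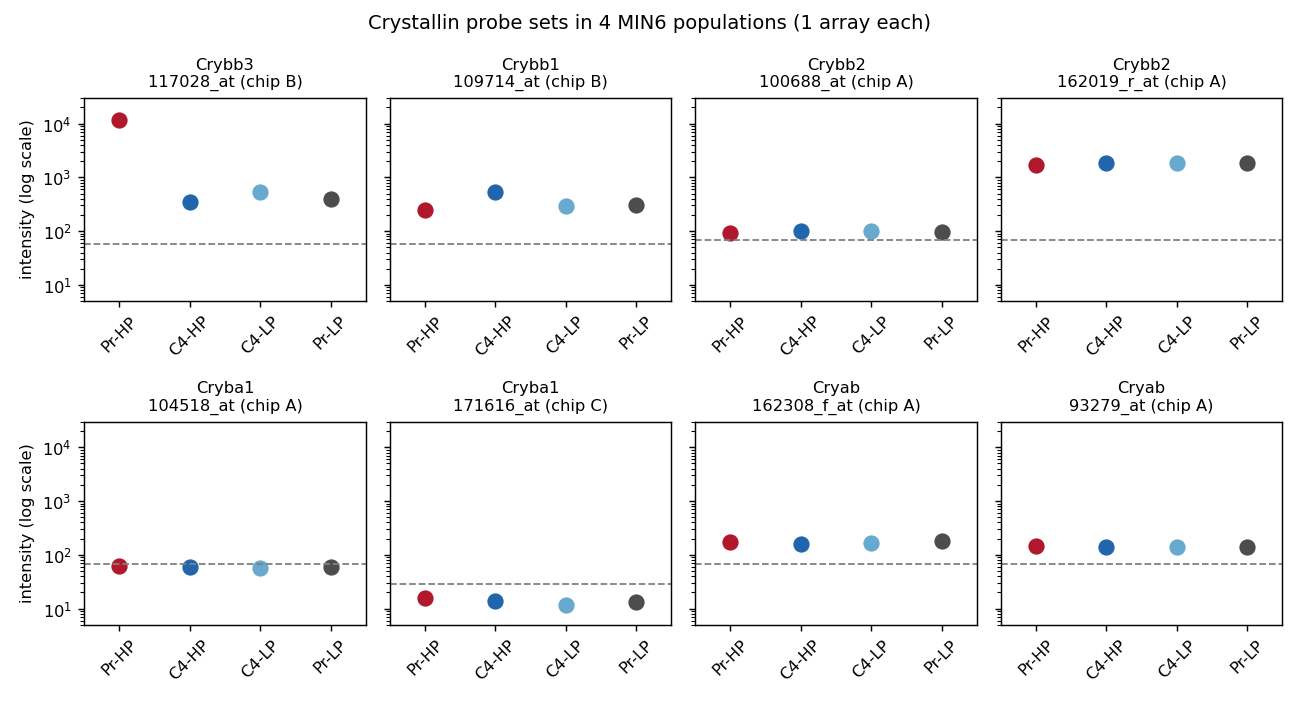
Intensity of the 8 crystallin probe sets (log axis, units of the deposited values) in Pr-HP, C4-HP, C4-LP and Pr-LP, 1 point per array, with the floor of each chip as a dashed line. Crybb3 stood at 11438 units in Pr-HP, against 353 to 538 in the responder populations, while the other probe sets differed by at most 2.16-fold between populations.

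The higher passage of clone 4 cells did not show this. C4-HP, at passages 40 to 50, had 0.657 times the Crybb3 intensity of C4-LP (log2 -0.61), whereas Pr-HP had 28.8 times that of Pr-LP. Between the late populations, Crybb3 in C4-HP was 0.0309 times its value in Pr-HP. Crybb1, described below, also ran in opposite directions with passage in the parental and clone 4 lines, so that 2 of 6 member probe sets did so with a difference of at least 2-fold, where 4.59% of all probe sets did. The members were chosen with these values known, so nothing is read from this count. For Crybb3 the early populations differed little, with C4-LP at 1.36 times Pr-LP (log2 0.44). Passage and line can be set against each other only through these 4 cultures, and a culture cannot be told apart from its line and passage. As these are bulk samples, a larger share of cells with the RNA and more RNA per cell cannot be told apart either.

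Of the 23403 probe sets that reached 100 units on the higher side of the comparison, Crybb3 had the largest fold of Pr-HP over the responder mean in the deposited values with this floor. It was the second largest with a floor of 1.0 unit, a comparison added after the data were seen. The next at the floor used here was 99915_at, which has no gene name in the annotation (14.6-fold). Then came Sparcl1, a secreted matrix protein (12.8-fold), Car2, a carbonic anhydrase (12.7-fold), and Sox11, a transcription factor (11.6-fold). Other probe sets of Sparcl1 and Sox11 had smaller folds, given below. The median log2 fold over all 23403 probe sets was -0.01, and its 1st and 99th percentiles were -1.01 and 1.06.

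**Figure D2:**
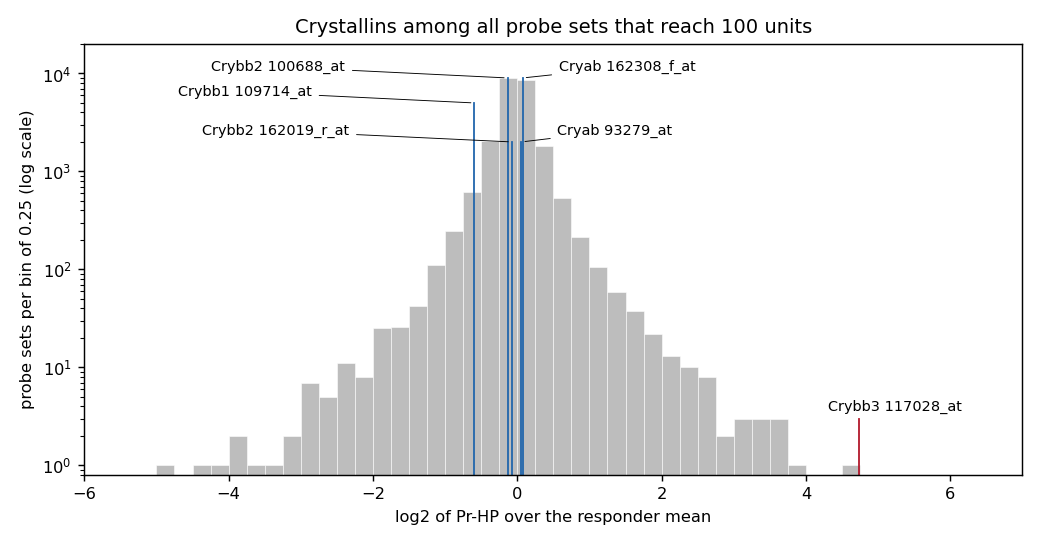
Number of probe sets (log axis) by log2 fold of Pr-HP over the responder mean, for the 23403 probe sets that reached 100 units, with the members marked by lines. Crybb3 lies at 4.74 on the right edge, and the other members that reached 100 units lie between -0.59 and 0.08.

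Of the 8 member probe sets 6 reached 100 units in this comparison, and 1 of them, Crybb3, was past 3-fold toward Pr-HP. Over all probe sets the share was 0.367%. The members were chosen with the values of all populations known, so nothing is read from this or the following counts. None of the 6 was 3-fold lower, where the share over all probe sets was 0.342%. Against Pr-LP, 5 member probe sets reached 100 units, 1 was past 3-fold toward Pr-HP (0.613% of all probe sets) and 0 were 3-fold lower (0.46%). Between C4-HP and C4-LP 0 of 6 moved by 3-fold, with 0.0988% of all probe sets higher and 0.24% lower. C4-LP against Pr-LP likewise gave 0 of 6, with 0.478% of all probe sets higher and 0.175% lower. C4-HP against Pr-HP gave 1 of 6 at least 3-fold lower (Crybb3, where 0.513% of all probe sets were) and 0 at least 3-fold higher (0.299%).

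Crybb1, a beta crystallin with long terminal arms that pairs with other beta crystallins, had another order of populations. Its probe set 109714_at on chip B had 252 units in Pr-HP, against 545 in C4-HP, 293 in C4-LP and 304 in Pr-LP. C4-HP was the high population, and Pr-HP was the lowest, below all 3 responder populations. Pr-HP had 0.663 times the responder mean of 381 ± 142 units (SD, n = 3 populations), and 0.831 times Pr-LP. C4-HP had 1.86 times the Crybb1 intensity of C4-LP and 2.16 times that of Pr-HP. In this last comparison it was the only member probe set at least 2-fold higher, a size that 1.06% of all probe sets reached. C4-LP and Pr-LP differed by less, at 0.965 times.

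Crybb2, the most abundant beta crystallin of the adult lens and the gene next to Crybb3 on chromosome 5, was even across the populations. Probe set 162019_r_at on chip A had 1731 units in Pr-HP, against 1818 in C4-HP, 1813 in C4-LP and 1841 in Pr-LP. Pr-HP was lowest, at 0.949 times the responder mean of 1824 ± 14.6 units (SD, n = 3 populations). The other Crybb2 probe set, 100688_at, had 91.2 units in Pr-HP, against 100.5 in C4-HP, 102 in C4-LP and 97.4 in Pr-LP, a fold of 0.912 over the responder mean. Both put Pr-HP lowest, by a small margin. The suffix r marks probes picked under relaxed rules, so that other transcripts may add to the signal of 162019_r_at.

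Cryba1, which gives rise to the βA1 and βA3 crystallins, was not above the floor on either chip. Its probe set 104518_at on chip A had 61.5 units in Pr-HP, against 59.0 in C4-HP, 57.0 in C4-LP and 58.9 in Pr-LP, all under the floor of 67.3. On chip C, 171616_at had 15.6 units in Pr-HP, against 13.9 in C4-HP, 11.7 in C4-LP and 13.5 in Pr-LP, all under 29.1. Hence no fold is given for Cryba1.

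Cryab, the small heat shock protein among the members, was even across the populations too. Probe set 93279_at on chip A had 146 units in Pr-HP, against 139 in C4-HP, 142 in C4-LP and 140.1 in Pr-LP. Probe set 162308_f_at, whose suffix f marks probes that several related sequences share, had 176 units in Pr-HP, against 156 in C4-HP, 165 in C4-LP and 180.5 in Pr-LP. The folds over the responder mean were 1.04 and 1.05. With 93279_at Pr-HP lay above the responder populations, while with 162308_f_at it lay between them.

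Among the 6 member probe sets that reached 100 units in some population, Pr-HP lay above all 3 responder populations in 2 (Crybb3 and Cryab 93279_at) and below all 3 in 3 (Crybb1 and both Crybb2 probe sets). Over all probe sets the shares were 28.8% and 28.6%. Only Crybb3 and Crybb1 differed by at least 2-fold between their highest and lowest population, 2 of 6 member probe sets, against 6.42% of all probe sets.

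The wider crystallin family was followed next, to see which relatives moved with Crybb3. The chips carry 26 probe sets of 15 alpha, beta and gamma crystallin genes, members included. The 25 probe sets other than Crybb3, from 14 genes, had folds of Pr-HP over the responder mean between 0.663 and 1.26. Of these 25 probe sets 23 varied by at most 1.28-fold between the highest and the lowest population after the floor, and the exceptions were Crybb1 and Cryba2. Among the 23 were both probe sets of Cryba1 and both of Crygb. All their values were under the floor, which fixed their ratio at 1, so they show no evenness. The other probe sets of the 25, 21 in number, reached 100 units in some population. Cryba2, an acidic beta crystallin, had 1126 units in Pr-HP on probe set 111748_at, against 1724 in C4-HP, 639.8 in C4-LP and 311 in Pr-LP. Both late populations were above their early ones, by 3.62-fold for Pr-HP over Pr-LP and 2.70-fold for C4-HP over C4-LP, an order that Crybb3 did not share. Cryaa, the lens partner of Cryab, had 937 units in Pr-HP on its brightest probe set 168196_f_at, against 1078 in C4-HP, 1115 in C4-LP and 1120.2 in Pr-LP. Its folds of Pr-HP over the responder mean were 0.848 on this probe set, 0.817 on 169044_i_at and 1.03 on 102393_at. Cryba4, the acidic partner gene of Crybb1, had 216 units in Pr-HP, against 225 in C4-HP, 241 in C4-LP and 225 in Pr-LP. Of 11 other alpha, beta and gamma crystallins listed, 10 had a probe set and 9 reached 100 units. By the probe set with the highest mean, 0 of these 9 genes were past 3-fold against the responder mean, and the median log2 fold was 0.11, beside -0.00 over all genes. Over all genes 55 of 12603 were 3-fold higher and 54 were 3-fold lower.

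**Figure D3:**
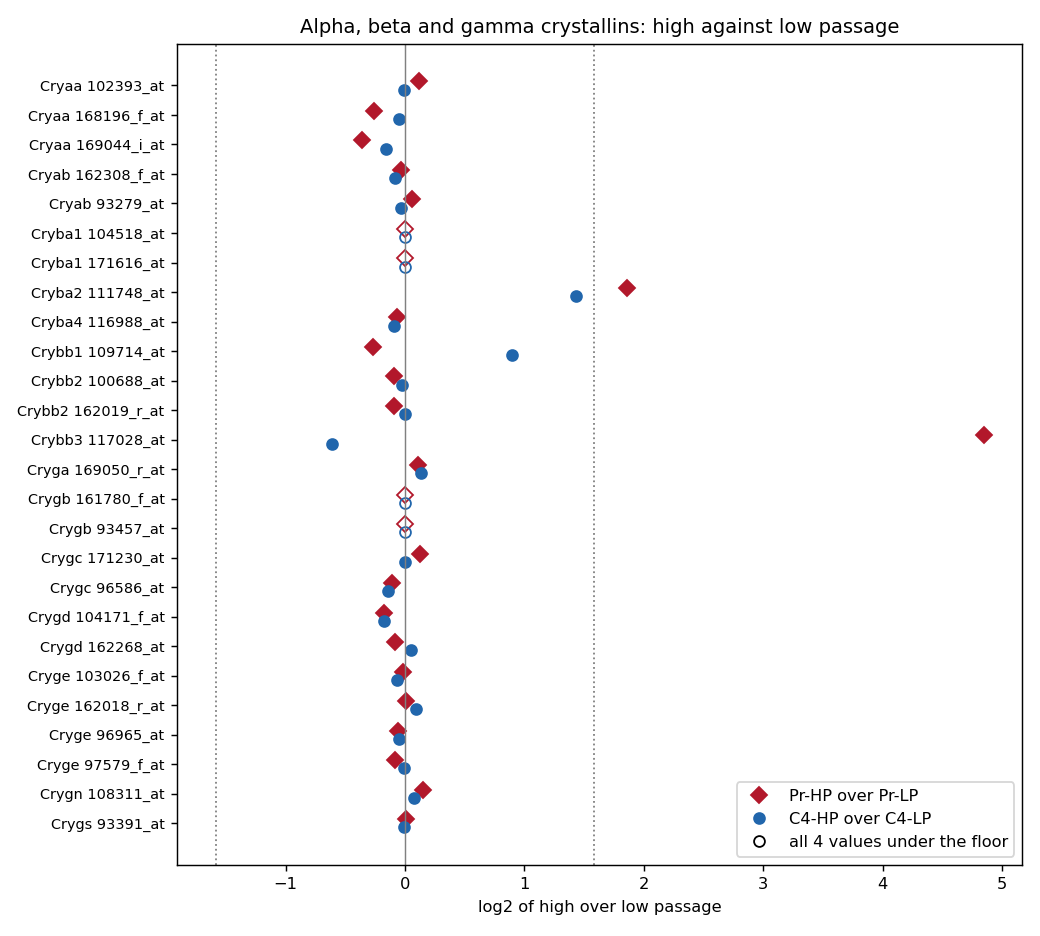
Log2 fold of high over low passage for the 26 probe sets of alpha, beta and gamma crystallins, with Pr-HP over Pr-LP as red diamonds, C4-HP over C4-LP as blue circles, open symbols where all 4 values are under the floor and dotted lines at 3-fold. Crybb3 lies at 4.85 in parental and at -0.61 in clone 4 cells, Cryba2 is above 0 in both, Crybb1 lies at 0.89 in clone 4 cells, and the rest lie closer to 0, the lowest at -0.36 for a Cryaa probe set.

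Enzymes that serve as crystallins in the lens of some animals were read in 1 list with distant relatives of the crystallins. Against the responder mean, 0 of 8 genes were past 3-fold. The median log2 fold was -0.07, with values between -0.77 and 0.56. Against Pr-LP alone, 76 of 12637 genes over all were 3-fold lower, and 1 of the 8 listed was. This was Cryl1, the lambda crystallin and an L-gulonate dehydrogenase, with 336 units in Pr-HP, against 339 in C4-HP, 356 in C4-LP and 1019.8 in Pr-LP. On this probe set, 103955_at, Pr-LP was the population that stood apart. On 161779_r_at Cryl1 had 236 units in Pr-HP, against 281 in C4-HP, 280 in C4-LP and 281 in Pr-LP, with Pr-HP lowest. A further Cryl1 probe set, 104803_at, was under the floor in all populations.

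Small heat shock proteins, the family of Cryab, gave 0 of 5 genes past 3-fold among the 7 on the chips, with a median log2 fold of -0.10. Hspb6, a small heat shock protein of muscle, had 619 units in Pr-HP, against 1401 in C4-HP, 1338 in C4-LP and 801 in Pr-LP, 0.524 times the responder mean. Hspb8, which works with Bag3, had 486 units in Pr-HP, against 375 in C4-HP, 533 in C4-LP and 661 in Pr-LP. Hspb2, the gene beside Cryab, had 276 units in Pr-HP on probe set 103215_g_at, against 241 in C4-HP, 231 in C4-LP and 263 in Pr-LP. The heat shock response genes gave 0 of 9 past 3-fold and a median of -0.05. Hspa1a, an inducible Hsp70, had 659 units in Pr-HP, against 273 in C4-HP, 184.5 in C4-LP and 383.5 in Pr-LP. Hspa1b, a near-identical copy, had 483 units in Pr-HP, against 197 in C4-HP, 85.6 in C4-LP and 233 in Pr-LP, and hybridisation between the copies makes their separate values uncertain. Both were higher in Pr-HP than in the mean of the responder cells, by 2.35-fold and 2.81-fold. Bag3, a partner of Hsp70, was high only in C4-LP, at 874 units on probe set 96167_at, against 288 in Pr-HP, 321 in C4-HP and 268 in Pr-LP.

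Genes of lens fibre cells were then compared, as the cells in which beta crystallins are best known. Of 9 listed genes 6 had a probe set and 3 reached 100 units, 0 were past 3-fold in any of the 4 comparisons, and the median log2 fold was -0.13. Lim2, a membrane protein of fibre cells, had 1143 units in Pr-HP, against 1182 in C4-HP, 1119 in C4-LP and 1275 in Pr-LP. Mip, the lens water channel, had 129.9 units in Pr-HP, against 146 in C4-HP, 137 in C4-LP and 144 in Pr-LP. Bfsp1, a filament protein of fibre cells, had 164 units in Pr-HP, against 180.1 in C4-HP, 184 in C4-LP and 197 in Pr-LP. The summed intensity of the 6 genes was 1648 units in Pr-HP, against 1719 in C4-HP, 1638 in C4-LP and 1815 in Pr-LP. Lim2 made up most of this sum, Mip and Bfsp1 lay under the median of chip A, and the remaining genes did not reach 100 units. A difference like that of Crybb3 was not seen in these values. Whether lens fibre genes as a set differed in Pr-HP was not tested.

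Transcription factors of the lens came to 13 genes with a probe set, of which 10 reached 100 units. None of the 10 was past 3-fold by the probe set with the highest mean, and the median log2 fold was 0.02. Pax6, which also serves islet cells, had 599 units in Pr-HP, against 518 in C4-HP, 621 in C4-LP and 942 in Pr-LP. Maf, the c-Maf factor that drives crystallin genes in the mouse lens, has 4 probe sets that differ. Probe set 115390_at on chip B had 286 units in Pr-HP, against 25.5 in C4-HP, 24.0 in C4-LP and 25.1 in Pr-LP. Since the responder values are under the floor, the fold of Maf toward Pr-HP was at least 4.88 by this probe set. On chip C, 130990_at of Maf had 68.4 units in Pr-HP, against 19.4 in C4-HP, 18.5 in C4-LP and 21.9 in Pr-LP, at least 2.35-fold. Probe set 92354_at had 104 units in Pr-HP, against 87.1 in C4-HP, 82.6 in C4-LP and 91.2 in Pr-LP, a fold of 1.20 over the responder mean. The last, 111115_at, had 105 units in Pr-HP, against 83.6 in C4-HP, 89.1 in C4-LP and 93.3 in Pr-LP, a fold of 1.18. All 4 put Pr-HP highest, but by sizes that differ widely between probe sets.

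Markers of cell types were read as a check on the cultures. The 8 listed β-cell genes with a probe set gave a summed intensity of 38133 units in Pr-HP, against 38528 in C4-HP, 42692 in C4-LP and 38891 in Pr-LP. Ins2 was the largest part of this sum, at 15526 units in Pr-HP, with Iapp, Chga and Chgb next. Ins1 was not in the list, and the study reported it lower in Pr-HP by RT-PCR. None of the 8 was past 3-fold against the responder mean, and the median log2 fold was -0.23. Pcsk1, a proinsulin-processing enzyme, had 1379 units in Pr-HP, against 771 in C4-HP, 759.8 in C4-LP and 425 in Pr-LP. Slc2a2, the glucose transporter of β-cells, had 499 units in Pr-HP, against 1754 in C4-HP, 464 in C4-LP and 478 in Pr-LP. Pcsk1 was highest in Pr-HP, as Crybb3 was, at 2.12-fold over the responder mean and 3.25-fold over Pr-LP. Its order of the responder populations differed from that of Crybb3. Slc2a2 was highest in C4-HP.

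Markers of other cells moved with Crybb3 in Pr-HP in part. Gcg, which encodes glucagon of α-cells, had 10552 units in Pr-HP on probe set 165472_i_at, against 2915 in C4-HP, 3175 in C4-LP and 502 in Pr-LP, 4.80-fold over the responder mean. On 94633_at Gcg had 2244 units in Pr-HP, against 275 in C4-HP, 346 in C4-LP and 50.6 in Pr-LP, 9.79-fold. For the 3 other islet markers with a probe set, Gcg, Ppy and Sst, the sum was 11318 units in Pr-HP. It was 3655 in C4-HP, 3910 in C4-LP and 1518 in Pr-LP. Most of the sum in Pr-HP was Gcg. Sst was even, with 206 units in Pr-HP, against 191 in C4-HP, 211 in C4-LP and 206 in Pr-LP. Cd68, a lysosomal protein of macrophages, had 1785 units in Pr-HP, against 196 in C4-HP, 209.7 in C4-LP and 177 in Pr-LP, 9.19-fold over the responder mean. It was the 1 gene of 7 macrophage and stroma markers past 3-fold, and 3 of the 7 reached 100 units. Lyz2, the lysozyme of macrophages, was under the floor in all 4 populations by both of its probe sets, at 35.9 units in Pr-HP, against 38.9 in C4-HP, 36.0 in C4-LP and 36.1 in Pr-LP by the brighter one. Csf1r, a growth factor receptor of macrophages, had 90.9 units in Pr-HP, against 91.1 in C4-HP, 88.0 in C4-LP and 99.7 in Pr-LP. Neither was raised in Pr-HP. The summed intensity of the 7 was 2918 units in Pr-HP, against 1275 in C4-HP, 1286 in C4-LP and 1302 in Pr-LP. Most of the sum in Pr-HP was Cd68, by 103016_s_at. The other Cd68 probe set, 162173_i_at, was under the floor in all 4 populations. The 6 acinar and duct markers summed to 1737 units in Pr-HP, against 1761 in C4-HP, 1753 in C4-LP and 1917 in Pr-LP, with 0 of 4 past 3-fold. Krt19, a duct keratin in that list, had 57.6 units in Pr-HP on 92550_at, against 56.4 in C4-HP, 57.6 in C4-LP and 223 in Pr-LP. All but the Pr-LP value were under the floor. On the other Krt19 probe set, 102121_f_at, all values were under it. Ppy, the pancreatic polypeptide, had 559.8 units in Pr-HP on the brighter probe set 162464_f_at, against 549 in C4-HP, 524 in C4-LP and 811 in Pr-LP. On 94148_at Ppy had 128 units in Pr-HP, against 142 in C4-HP, 118 in C4-LP and 361 in Pr-LP, and both probe sets were likewise highest in Pr-LP. The part of these cell markers in the Crybb3 value was not tested.

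Measures of the RNA on chip B, which carries the Crybb3 probe set, were close between the arrays. For Gapdh, the 3′ control probe set over the 5′ one gave a ratio of 0.953 in Pr-HP, against 1.09 in C4-HP, 1.09 in C4-LP and 1.01 in Pr-LP. The same ratio for Actb was 1.28 in Pr-HP, against 1.42 in C4-HP, 1.39 in C4-LP and 1.39 in Pr-LP. Pr-HP had the lowest ratio for both genes, and its part in the Crybb3 value was not tested.

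Crybb3 and Crybb2 lie side by side on chromosome 5, so the genes around the members were read in the order of the mouse annotation. Of the 20 nearest genes with a probe set, 10 on each side of Crybb3, 18 reached 100 units. They had folds of Pr-HP over the responder mean between 0.468 and 1.35, with 0 genes at least 2-fold higher and 1 at least 2-fold lower. On the side away from Crybb2 the first gene was 2900026A02Rik, with 488 units in Pr-HP, against 911 in C4-HP, 869.6 in C4-LP and 925 in Pr-LP. The second was Sgsm1, a regulator of small GTPases, with 230.5 units in Pr-HP, against 411 in C4-HP, 596 in C4-LP and 472 in Pr-LP. Both were lower in Pr-HP by the probe set with the highest mean, at 0.541 and 0.468 times the responder mean. Other probe sets of the same genes showed less: 167062_at of 2900026A02Rik had a fold of 0.959, 168989_r_at of Sgsm1 one of 1.06, and 168674_i_at of Sgsm1 one of 0.730. None of the neighbours of Crybb3 had its high value in Pr-HP. Around Cryba1 on chromosome 11, folds of the 19 of 20 genes that reached 100 units ran between 0.253 and 1.36. Abhd15, with 90.9 units in Pr-HP, against 259.6 in C4-HP, 232 in C4-LP and 588 in Pr-LP, was the 1 gene there past 2-fold. Around Cryab on chromosome 9, 9 of 20 reached 100 units and had folds between 0.786 and 1.17, with 0 past 2-fold.

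**Figure D4:**
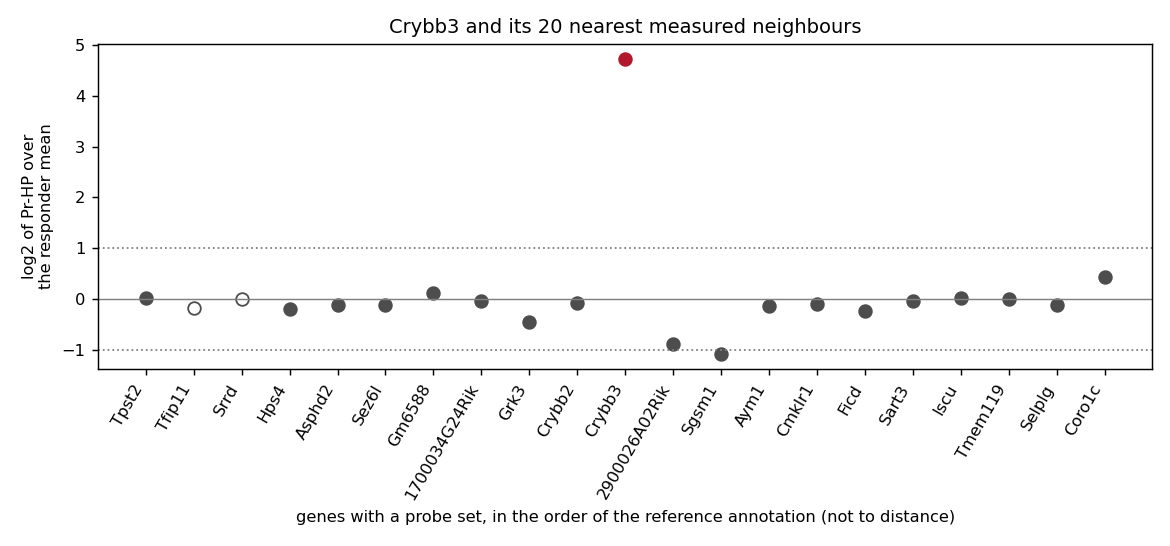
Log2 fold of Pr-HP over the responder mean for Crybb3 and the 10 genes with a probe set on each side of it, in the order of the annotation, with open circles for genes under 100 units and dotted lines at 2-fold. Crybb3 lies at 4.74, and the neighbours that reached 100 units lie between -1.10 and 0.43.

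The genes whose values over the populations were most like those of Crybb3 were found by the Euclidean distance between centred log2 profiles over the 4 populations, among 20234 probe sets with 1 symbol that reached 100 units. They were Sparcl1 (distance 1.03), Sox11 (1.13), Car2 (1.14), Stmn2 (1.28), Cd68 (1.40), Pqlc3 (1.41), Fbp1 (1.52), Enpep (1.78), Gad2 (1.81) and Qpct (1.88). All 10 had Pr-HP highest, as the measure requires. Sparcl1 had 909 units in Pr-HP, against 64.0 in C4-HP, 70.8 in C4-LP and 74.9 in Pr-LP. Sox11 had 1354 units in Pr-HP, against 122 in C4-HP, 127 in C4-LP and 100.4 in Pr-LP. Car2 had 1831 units in Pr-HP, against 162 in C4-HP, 131 in C4-LP and 139 in Pr-LP. Each of these 3 had a smaller fold than Crybb3, and they differed from it in the order of the responder populations. Qpct, a glutaminyl cyclase that modifies peptide hormones, had 1118 units in Pr-HP, against 146 in C4-HP, 221 in C4-LP and 193 in Pr-LP, the same order of all 4 populations as Crybb3. Likeness did not extend to every probe set of a gene. Over the responder mean, the other Sparcl1 probe set, 171420_r_at, had a fold of 1.05. Sox11 had 4.75 on 130532_at, 3.15 on 117310_at and at least 2.56 on 93669_f_at, while 117084_at was under the floor throughout. Stmn2 had 6.37 on 95669_g_at and at least 1.13 on 95668_at. Gad2 had at least 1.10 on 92899_at and at least 1.21 on 166542_at. For Cd68, 162173_i_at had 39.1 units in Pr-HP, against 38.1 in C4-HP, 40.6 in C4-LP and 34.7 in Pr-LP. For Enpep, 161155_r_at had 526 units in Pr-HP, against 428 in C4-HP, 437 in C4-LP and 534 in Pr-LP. With 4 populations and 1 of them apart, the distance mostly measures how far Pr-HP stood from the others, and no shared control is read from it.

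**Figure D5:**
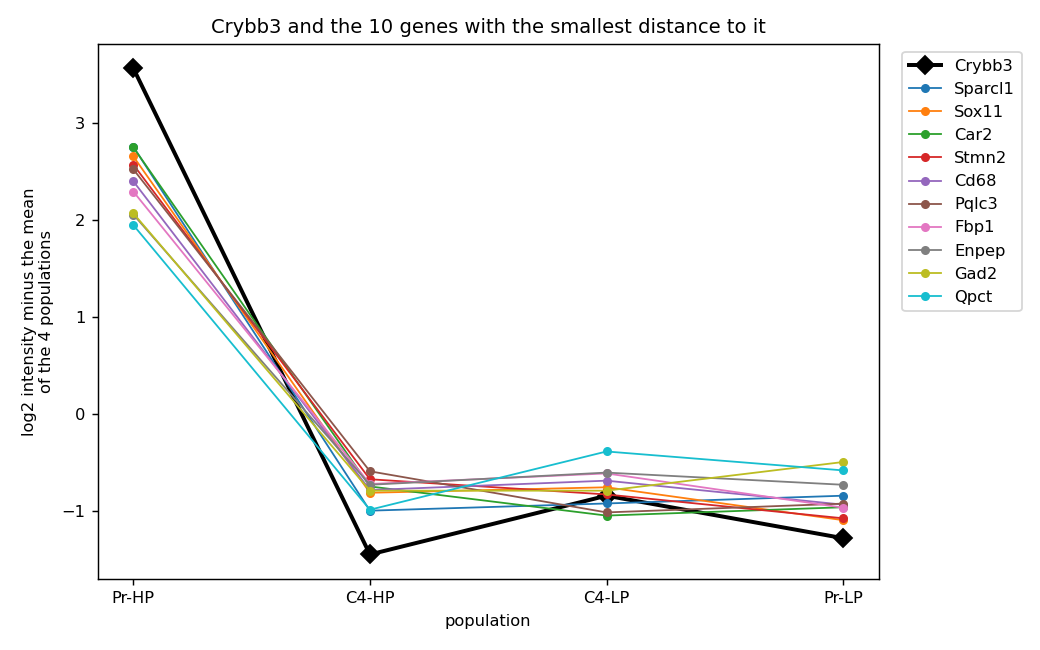
Log2 intensity centred on the mean of the 4 populations for Crybb3 and the 10 genes most like it, in Pr-HP, C4-HP, C4-LP and Pr-LP. All lines are highest in Pr-HP, and Crybb3 has the largest difference between Pr-HP and the other populations.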

How the data were processed

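RNA of 4 MIN6 populations was measured on Affymetrix MG_U74v2 chips A, B and C, 1 array per population and chip. The authors deposited 1 intensity per probe set and array, on a linear scale. Their methods name the GeneChip 5.1 software, and the sources used here do not name a normalization. Medians of the 4 arrays of a chip lay at 214.2 to 216.0 units on chip A, 161.9 to 162.7 on chip B and 92.5 to 92.9 on chip C, and no scaling was added. Control probe sets (198) were left out. Symbols came from the platform annotation, of which 29131 probe sets have exactly 1.

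The responder mean is arithmetic and covers C4-HP, C4-LP and Pr-LP. Values under the 20th percentile of a chip were raised to it before a fold was taken. A call needed a fold of 3 and 100 units on the higher side, and the background share was taken over all probe sets that reach 100 units. Where the lower side is under the floor, the fold is printed as at least that value. A gene with several probe sets is counted by the one with the highest mean. The members, gene lists and motifs were chosen with earlier results of these data known, and each contrast shares its arrays with others, so that no p-value is given. Named are all member probe sets, list genes past 3-fold in 1 of 4 comparisons, the 2 brightest of a list with none, neighbours past 2-fold, and the 10 genes nearest to Crybb3. Cryaa, Cryba4, Hspb2, Hspa1a, Hspa1b, Mip, Pax6, Sst, Lyz2, Csf1r and 2900026A02Rik are outside that rule and were named after their values were seen. Python 3.11.15 with numpy 2.4.6, pandas 2.3.3 and matplotlib 3.10.9 was used, and the fold code was checked on simulated data. Alternatives changed the normalization, floor, fold, minimum, responder populations and likeness measure.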

Additional observations from a re-analysis of the deposited data

Results flagged for a closer look

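High over low passage went in opposite directions in parental and clone 4 cells for 2 member probe sets, by at least 2-fold. A culture cannot be told apart from its line and passage here. For Crybb3 117028_at the log2 fold was 4.85 for Pr-HP over Pr-LP and -0.61 for C4-HP over C4-LP, a difference of 5.46. For Crybb1 109714_at the log2 fold was -0.27 for Pr-HP over Pr-LP and 0.89 for C4-HP over C4-LP, a difference of -1.16. Each value rests on 1 array per population, and neither difference was tested. Over all 23962 probe sets that reached 100 units in some population, 4.59% had opposite directions and a difference of this size.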

How the results depend on the processing

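The fold of Crybb3 in Pr-HP over the responder mean was 24.5 without C4-HP, 25.7 without Pr-LP and 30.5 without C4-LP, and 29.5 after quantile normalization. That fold was the largest of all probe sets except with a floor of 1.0 unit, where it ranked 2. The number of member probe sets past 3-fold kept its value under the alternatives run, except that a 2-fold threshold gave 2 (Crybb3 and Crybb1) in place of 1 for C4-HP over Pr-HP. The alternatives for this rank and for this last comparison were added after the data were seen. Of 60 values of Crybb1, Crybb2 and Cryab under alternatives, 6 moved by more than the spread of the responder populations, with folds between 0.595 and 1.10 throughout. The genes most like Crybb3 depended on the measure, since Pearson correlation shared 0 of the 10 and a floor of 1.0 unit shared 6 of the 10. For Pr-HP over the responder mean, a threshold of 2-fold gave 2 heat shock response genes and 1 β-cell gene (Pcsk1). The 2 heat shock genes were the near-identical copies Hspa1a and Hspa1b. Over all probe sets, the 99th percentile of the log2 fold in this comparison was 1.06. The lists were chosen with earlier results known, so nothing is read from these counts. Taking the probe set with the largest fold gave 1 transcription factor of the lens (Maf). With 1 array per population and chip no paired analysis was possible because the groups share no replicate within a chip. No array gives a replicate error, and values near the floor carry little information on direction.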
